A study of Mus musculus with 4 samples.

Results

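Chemoattractant receptors are the surface receptors by which neutrophils sense where to move. The 9 genes described here are 8 such receptors, Ccr1, Ccr2, Cxcr4, Ccrl2, Fpr2, C5ar1, Ltb4r1 and Ptafr, and Prok2, a secreted chemotactic peptide that marrow neutrophils make. They were taken by gene symbol from the platform annotation, with every probe set of each gene, which gave 17 of 45101 probe sets and 9 of 18193 named genes.

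The cells were bone marrow neutrophils of 8-week-old C57BL/6 mice, prepared with a magnetic bead kit. One genotype was wild type (miR-125a+/+) and the other lacked the microRNA miR-125a (miR-125a-/-, called knockout here). Each genotype was examined untreated and after 3 h with lipopolysaccharide (LPS), an outer membrane glycolipid of Gram-negative bacteria. RNA from 3 independent experiments was pooled for each group before hybridisation, which leaves 1 Affymetrix array for each of the 4 groups. With no replicate arrays, differences could not be tested or checked by repetition, and precision is limited by the array number. The labels do not settle whether unstimulated cells also spent 3 h in culture, so an effect of 3 h in culture cannot be told apart from that of LPS.

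Most of these receptors are G protein-coupled receptors that signal through inhibitory G proteins to phosphoinositide 3-kinase gamma and to actin remodelling. Ccr1 and Ccr2 bind CC chemokines, Cxcr4 binds Cxcl12 and holds neutrophils in the marrow, Fpr2 binds formylated and other peptides, C5ar1 the complement fragment C5a, Ltb4r1 leukotriene B4 and Ptafr platelet-activating factor. Ccrl2 binds the attractant chemerin and presents it to other cells without known signalling of its own. Prok2, also called Bv8, is produced by myeloid cells and acts on other cells through the prokineticin receptors.

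Values are log2 signals, and a probe set was read as measured where it exceeded a floor of 6.80 (signal 111), the 60th percentile of all values. A gene was called higher or lower from a 2-fold difference (log2 1) between 2 arrays. Its value was that of its probe set with the highest mean, and where 1 of the 2 signals was under the floor the difference gives a lower bound. Between 37.8% and 41.5% of probe sets lay above the floor on each array, and the 3' to 5' signal ratio of the control probe sets was 0.92 to 1.01 for Gapdh and 1.12 to 1.18 for Actb. All 11 matched neutrophil markers, such as S100a8 and Ltf, were above the floor. Their summed signal was 283792 and 298363 on the unstimulated and LPS wild-type arrays, and 311569 and 336634 on the knockout arrays. miR-125a itself was not measured here, so the genotype labels were not checked.

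After LPS, Ccrl2 was far higher and Prok2 and Ccr2 far lower in both genotypes, with Ccr1 and Cxcr4 lower to a lesser extent. In wild-type cells 2 of the 8 measured genes were called higher, against a background of 7.29% of all 9507 measured genes, and 4 were called lower, against 9.69%; the background in either direction was 17.0%. In knockout cells 1 of 8 was higher (background 6.62% of 9578) and 4 were lower (background 7.99%, and 14.6% in either direction). The median difference of the 8 genes was -0.46 in wild-type and -0.51 in knockout cells, beside -0.03 and -0.05 over all measured genes.

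The background depends on how the arrays are scaled. Of all genes 693 were higher and 921 lower in wild-type cells, and 634 and 765 in knockout cells. The splits were 835 and 707, and 735 and 633, under quantile normalization, and 1030 and 620, and 737 and 626, under median scaling. With scaling on the spiked poly-A controls they were 340 and 2389, and 314 and 2574. The median over all genes shifted by 0.23 in wild-type and 0.10 in knockout cells under median scaling, and by -0.51 and -0.56 on the poly-A scale.

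**Figure D1:**
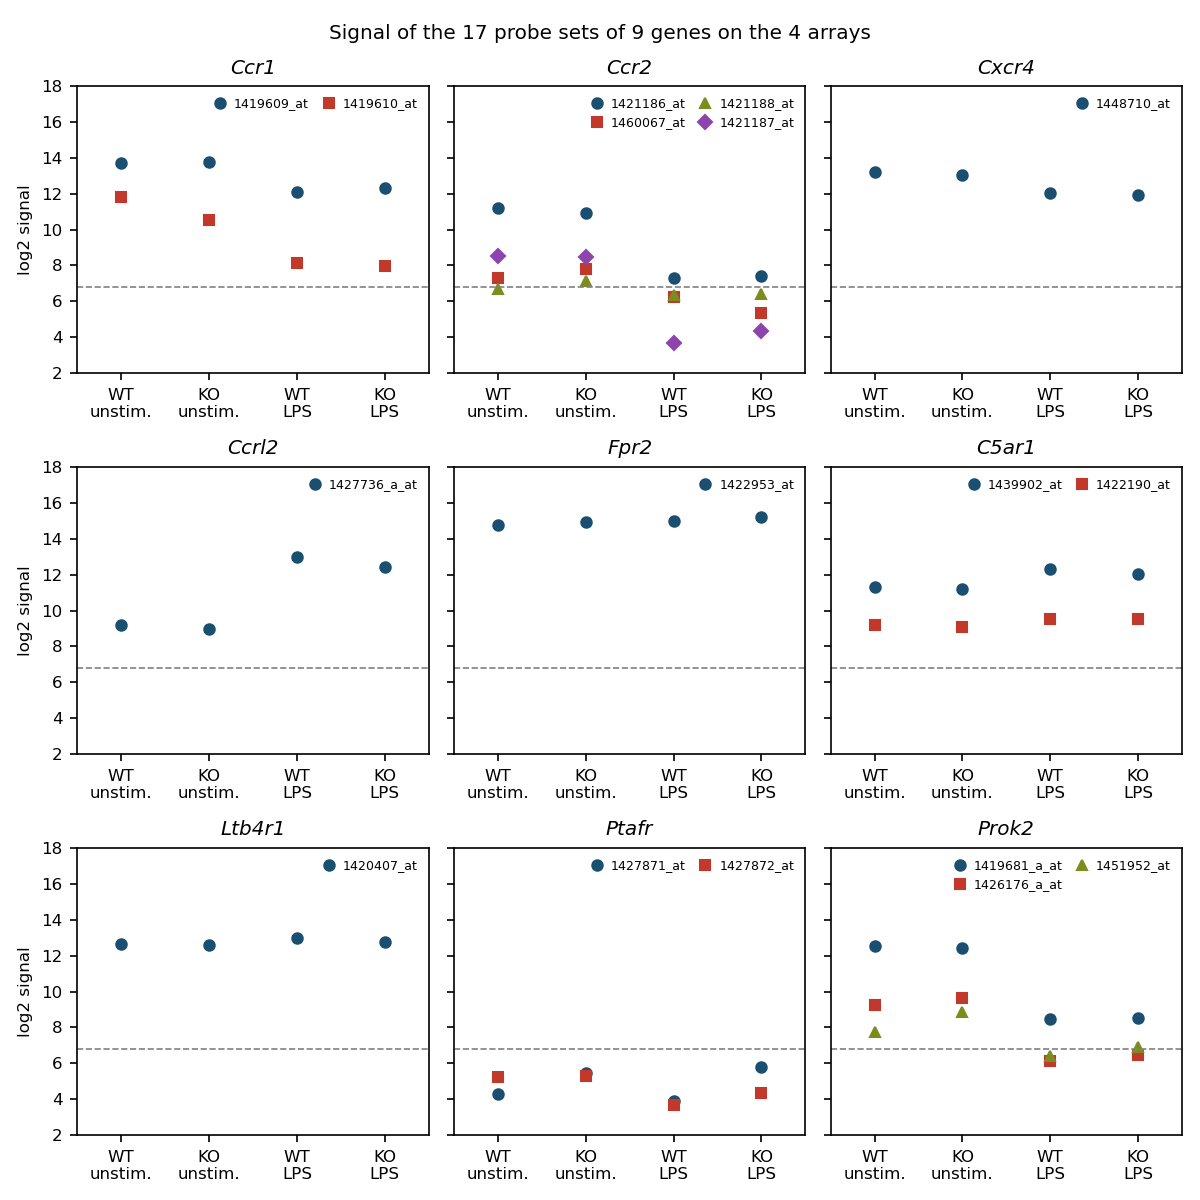
Log2 signal (y axis) of each probe set of the 9 genes on the 4 arrays (x axis: wild type, WT, and knockout, KO, unstimulated and after LPS), 1 panel per gene and 1 symbol per probe set, with the floor of 6.80 as a dashed line. Each point is 1 array of pooled RNA, so there are no error bars, and levels of different probe sets are not comparable. The brighter Prok2 and Ccr2 probe sets lay lower on the LPS arrays, Ccrl2 lay higher, and both Ptafr probe sets stayed under the floor.

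The promoter windows of Ccrl2 and Prok2 are printed because these genes had the most extreme LPS differences among the 9 in each direction. Windows of 250 bases before to 50 bases after a transcript start were found for all 9 genes in RefSeq (GRCm38.p6), 11 windows in all, with 3 for Ccrl2. Both windows below are written 5' to 3' on the gene's strand, with motif matches in capitals.
Ccrl2, chr9:111057469-111057768, minus strand: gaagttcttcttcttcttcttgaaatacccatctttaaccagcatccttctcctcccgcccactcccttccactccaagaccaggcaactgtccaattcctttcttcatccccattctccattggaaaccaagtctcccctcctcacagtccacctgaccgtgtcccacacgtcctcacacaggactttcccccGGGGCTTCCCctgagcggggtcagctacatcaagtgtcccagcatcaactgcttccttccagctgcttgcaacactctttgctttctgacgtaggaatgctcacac
Prok2, chr6:99726343-99726642, minus strand: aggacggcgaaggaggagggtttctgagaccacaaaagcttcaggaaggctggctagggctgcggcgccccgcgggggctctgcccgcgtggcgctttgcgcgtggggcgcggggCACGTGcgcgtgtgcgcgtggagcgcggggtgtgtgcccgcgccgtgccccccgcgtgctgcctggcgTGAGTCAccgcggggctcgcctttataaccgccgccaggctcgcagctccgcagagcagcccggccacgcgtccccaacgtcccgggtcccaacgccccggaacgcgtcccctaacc

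The capitals in the Ccrl2 window mark a match of 10 bases to the kappa B consensus, the motif of NF-kB factors, beginning 56 bases before the start. The other 2 Ccrl2 windows, from starts farther downstream, held no match. Of 32851 windows in the table, 4.51% held a kappa B match on either strand. The capitals in the Prok2 window mark an E-box (CACGTG), the motif of clock factors among others, beginning 135 bases before the start, and an AP-1 motif (TGANTCA), here TGAGTCA, beginning 67 bases before it. E-boxes occurred in 7.15% and AP-1 motifs in 7.81% of windows. A STAT-type motif (TTCNNNGAA) was found in 1 of the 11 windows, that of Fpr2, and in 8.30% of all windows. The windows of Ccr1, Ccr2, Cxcr4, C5ar1, Ltb4r1 and Ptafr held none of these 4 motifs, which do not overlap one another in these windows. A match is a description of the letters and not a measured binding site.

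Prok2 had the largest decrease of the 9 genes under the deposited scaling and both other scalings on array signal, as well as on the poly-A scale. Its probe set 1419681_a_at had a log2 signal of 12.53 in unstimulated wild-type, 12.43 in unstimulated knockout, 8.44 in LPS wild-type and 8.50 in LPS knockout cells. Both LPS arrays lay far below both unstimulated arrays, and the genotypes were close to each other at each time. The signal was 17.0-fold lower after LPS in wild-type cells (log2 difference -4.09) and 15.3-fold lower in knockout cells (-3.93). With signals under the floor held at it, here and in the ranks of the other genes, so that differences of such genes are bounds, Prok2 had rank 2 from the lowest among 9507 genes in wild-type and rank 2 among 9578 in knockout cells.

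The other Prok2 probe sets moved the same way with different sizes. Probe set 1426176_a_at had log2 signals of 9.23 and 9.62 in unstimulated wild-type and knockout cells, and 6.11 and 6.44, both under the floor, after LPS. It was therefore at least 5.40-fold lower in wild-type and at least 7.08-fold lower in knockout cells. Probe set 1451952_at had 7.73 and 8.86 unstimulated, and 6.41 and 6.92 after LPS. With the LPS wild-type value under the floor, its bound in wild-type cells was 1.92-fold lower, short of the call, whereas in knockout cells, above the floor on both arrays, it was 3.86-fold lower. These last 2 probe sets were designed from the same source sequence, and 1419681_a_at from another.

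With the floor applied 2 of 3 Prok2 probe sets in wild-type and 3 of 3 in knockout cells reached 2-fold. Of these, 1426176_a_at passed the floor through the unstimulated arrays alone, so it could not have been called higher. The suffix a in a probe set name marks probes shared by transcripts of 1 gene. With all probe sets carrying a suffix for shared probes left out, 1451952_at alone stands for Prok2, and its wild-type difference becomes -0.94. With the a type kept and only the types shared between genes or cross-hybridising left out, Prok2 stayed at -4.09.

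Ccr2, a receptor best known on monocytes, where it binds Ccl2 and related attractants, was next. Probe set 1421186_at had log2 signals of 11.19 in unstimulated wild-type, 10.93 in unstimulated knockout, 7.31 in LPS wild-type and 7.39 in LPS knockout cells. All 4 values were above the floor, and the LPS arrays lay close to it. The difference was 14.7-fold lower in wild-type (-3.88, rank 4 of 9507 from the lowest) and 11.6-fold lower in knockout cells (-3.54, rank 4 of 9578).

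The 3 further Ccr2 probe sets were under the floor on the LPS arrays, so they give bounds only and could not have been called higher. Probe set 1421187_at had 8.53 and 8.44 unstimulated and 3.66 and 4.33 after LPS, at least 3.31-fold lower in wild-type and at least 3.13-fold lower in knockout cells. Probe set 1460067_at had 7.30 and 7.81 unstimulated and 6.22 and 5.33 after LPS, with bounds of -0.50 in wild-type and -1.01 in knockout cells. Probe set 1421188_at, at 6.71 and 7.13 unstimulated and 6.34 and 6.38 after LPS, exceeded the floor only on the unstimulated knockout array. With the floor applied 2 of 4 Ccr2 probe sets in wild-type and 3 of 4 in knockout cells reached 2-fold. In knockout cells 2 of 4 did so under quantile normalization and under median scaling. Of the probe sets counted, only 1421186_at was above the floor on all arrays, so the count does not test the direction of the others. All but 1460067_at were designed from 1 source sequence.

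Having 2 or more probe sets called lower was common among genes with a large decrease. These genes were chosen because their probe set with the highest mean was lower, and that probe set is counted too. The shares are therefore partly fixed in advance and do not measure agreement. Of the 46 genes with at least 3 probe sets that were at least 4-fold lower in wild-type cells, 87.0% had 2 or more probe sets called lower, as did 83.3% of 24 in knockout cells. Among all genes with at least 3 probe sets that were called lower the shares were 58.2% of 368 and 52.4% of 275. Ccr2 and Prok2 each had 2 or more in both genotypes, with the same limit.

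**Figure D2:**
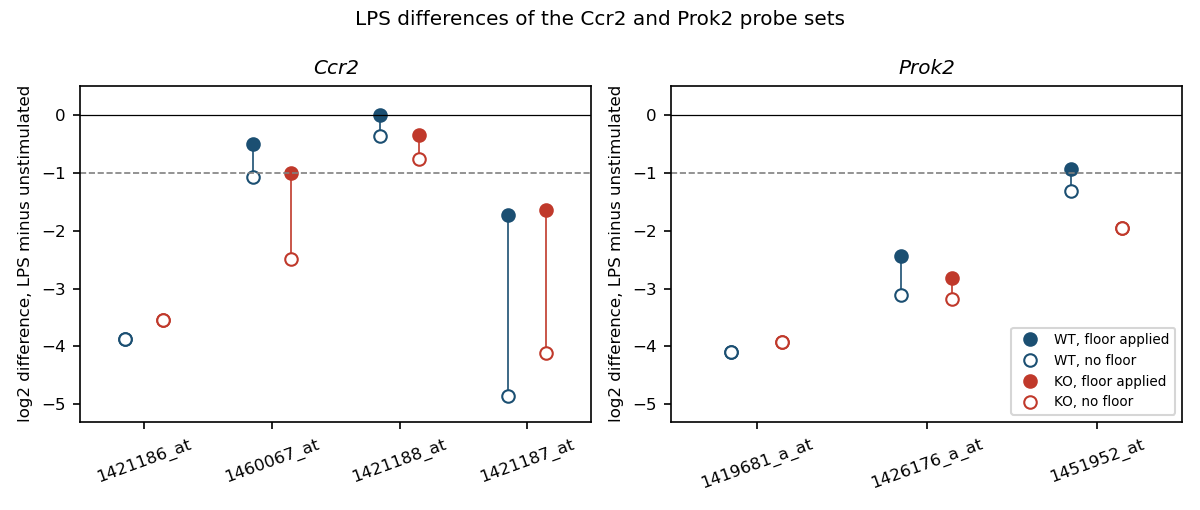
Log2 difference between LPS and unstimulated arrays (y axis) of each Ccr2 and Prok2 probe set (x axis) in wild-type (blue) and knockout cells (red), with signals under the floor raised to its value (filled) or as deposited (open, covering the filled symbol where both are equal). The dashed line marks the 2-fold call. An open symbol apart from its filled one rests on a signal under the floor and has no measured size. The small filled differences belong to probe sets whose LPS signal was under the floor.

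Monocyte and macrophage markers differed between these arrays in both directions. Of 11 matched monocyte and macrophage markers 5 were higher and 3 lower after LPS in each genotype (4 and 4 in wild-type, 5 and 4 in knockout cells on the poly-A scale). Over all measured genes 7.29% were higher and 9.69% lower in wild-type cells, and 6.62% and 7.99% in knockout cells. The summed signal of the markers was 38166 and 39678 in unstimulated and 57128 and 56024 in LPS wild-type and knockout cells. Adgre1, a macrophage surface receptor gene, was 30.7-fold higher, Vcam1 8.77-fold and Csf1r, the receptor of a macrophage growth factor, 6.24-fold higher in wild-type cells. Klf4, a transcription factor of monocyte differentiation, was 17.2-fold, F13a1 3.81-fold and Irf8 3.18-fold lower in wild-type cells. Cx3cr1 and Adgre4, the others called higher, passed the floor through the LPS arrays alone, so they could not have been called lower. The brightest markers weigh most in the sums. In wild-type cells these were F13a1 on the unstimulated array (13.97) and Csf1r on the LPS array (14.45), so the sums do not show a common direction. None of the 11 was under the floor on all arrays. Whether monocytes in the preparation have a part in the Ccr2 difference was not tested. Fewer cells of a type and less RNA per cell cannot be told apart in these bulk samples.

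Markers of further cell types were counted in the same way, beside the same background. After LPS 0 of 11 neutrophil markers were called in wild-type cells and 1 was lower in knockout cells, while 4 were lower in each genotype on the poly-A scale, 2 in knockout cells under quantile normalization, and 1 was higher in wild-type cells under median scaling. None of 5 and 4 measured B and plasma cell markers was called. Cd79a, Ms4a1 and Pax5 were under the floor on all arrays, while Jchain (13.98 to 14.67) and Cd79b (7.80 to 8.18) were above it on all. The 2 measured T and NK cell markers, Cd3d (9.35 to 9.92) and Nkg7 (9.02 to 10.79), were above the floor on all arrays. Nkg7 was lower in each genotype, and Cd3e, Cd3g, Cd4 and Cd8a were under the floor. Of 8 matched dendritic cell markers 6 were under the floor on all arrays. Of the 2 measured, Itgax was higher (a bound of 1.39 in wild-type and 1.25 in knockout cells) and Bst2 was not called (0.77 and 0.79). Itgax was under the floor on the unstimulated wild-type array (5.28) and barely above it on the unstimulated knockout array (6.85). It could therefore not have been called lower. The erythroid markers Klf1, Ermap and Car1 passed the floor through the unstimulated arrays alone, so no erythroid count is given. Car2, above the floor on all arrays, was lower in knockout cells (-1.48) and not called in wild-type cells (-0.58). No stem or progenitor marker of 4 and 5 was called. A list meant for the region around Ccr2 had 8 matched genes, but Ltf and Lrrc2 among them lie close to Ccrl2 instead. Of the 8, 3 were measured (Ccr9, Fyco1 and Ltf), and Ccr9 alone was called, lower in wild-type cells. It passed the floor through the unstimulated arrays alone, so it could not have been called higher.

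Ccr1, which binds Ccl3, Ccl5 and related CC chemokines, was lower on both of its probe sets, which share a source sequence. Probe set 1419609_at had 13.69 in unstimulated wild-type, 13.76 in unstimulated knockout, 12.11 in LPS wild-type and 12.31 in LPS knockout cells, 3.00-fold lower in wild-type (-1.58) and 2.73-fold lower in knockout cells (-1.45). Probe set 1419610_at had 11.84, 10.53, 8.16 and 7.94 on the same arrays in that order, 12.9-fold lower in wild-type (-3.69) and 6.01-fold lower in knockout cells (-2.59). The LPS arrays lay below the unstimulated ones on both, and the sizes of the 2 probe sets differed by over 2 log2 units in wild-type cells. In the mean over the probe sets Ccr1 stood at -2.63 and -2.02.

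Cxcr4, whose single probe set is 1448710_at, had 13.19 in unstimulated wild-type, 13.03 in unstimulated knockout, 12.04 in LPS wild-type and 11.90 in LPS knockout cells. It was 2.22-fold lower after LPS in wild-type and 2.20-fold lower in knockout cells, near the 2-fold line on which calls were made. Under median scaling the wild-type difference was -0.91, short of the call, and under poly-A scaling -1.72. Just under 1 gene in 10 was called lower in wild-type cells by the same rule, so the call for Cxcr4 is a common one here.

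Ccrl2 was the receptor gene with the steepest increase among the 9. Its single probe set 1427736_a_at had 9.17 in unstimulated wild-type, 8.98 in unstimulated knockout, 12.96 in LPS wild-type and 12.43 in LPS knockout cells. Both LPS arrays stood far above both unstimulated arrays. The difference was 13.9-fold in wild-type (3.79) and 10.9-fold in knockout cells (3.45), with ranks of 28 among 9507 and 37 among 9578 from the highest. It was 3.23 and 2.84 under poly-A scaling. With probe sets of the a type left out no value is left for Ccrl2, and no second probe set bears on it.

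C5ar1 is the receptor of the anaphylatoxin C5a. Probe set 1439902_at had 11.29 in unstimulated wild-type, 11.22 in unstimulated knockout, 12.31 in LPS wild-type and 12.06 in LPS knockout cells. Its difference was 2.03-fold in wild-type cells (1.02, called) and 1.79-fold in knockout cells (0.84, not called), and whether the 2 differ was not tested. The second probe set, 1422190_at, had 9.17, 9.08, 9.55 and 9.51 in that order, with differences of 0.38 and 0.43. The wild-type call ended under quantile normalization (0.95), under poly-A scaling (0.46) and when both probe sets were averaged (0.70), and all of these values stayed above 0.

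Fpr2 and Ltb4r1 were not called. Fpr2, on 1422953_at, had 14.78 in unstimulated wild-type, 14.93 in unstimulated knockout, 15.01 in LPS wild-type and 15.22 in LPS knockout cells. Its LPS differences were 0.24 and 0.29, but -0.04 and -0.01 under quantile normalization and -0.33 and -0.32 under poly-A scaling. Ltb4r1, on 1420407_at, had 12.67, 12.62, 12.96 and 12.74 on the same arrays, with LPS differences of 0.29 and 0.12, and -0.28 and -0.49 under poly-A scaling. Relative to the median of all genes on that scale, Fpr2 stood at 0.22 and 0.29 and Ltb4r1 at 0.27 and 0.11. Ptafr was not measured, since its probe sets 1427871_at and 1427872_at reached at most 5.79 and 5.27, under the floor on all 4 arrays. No fold is given for it.

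**Figure D3:**
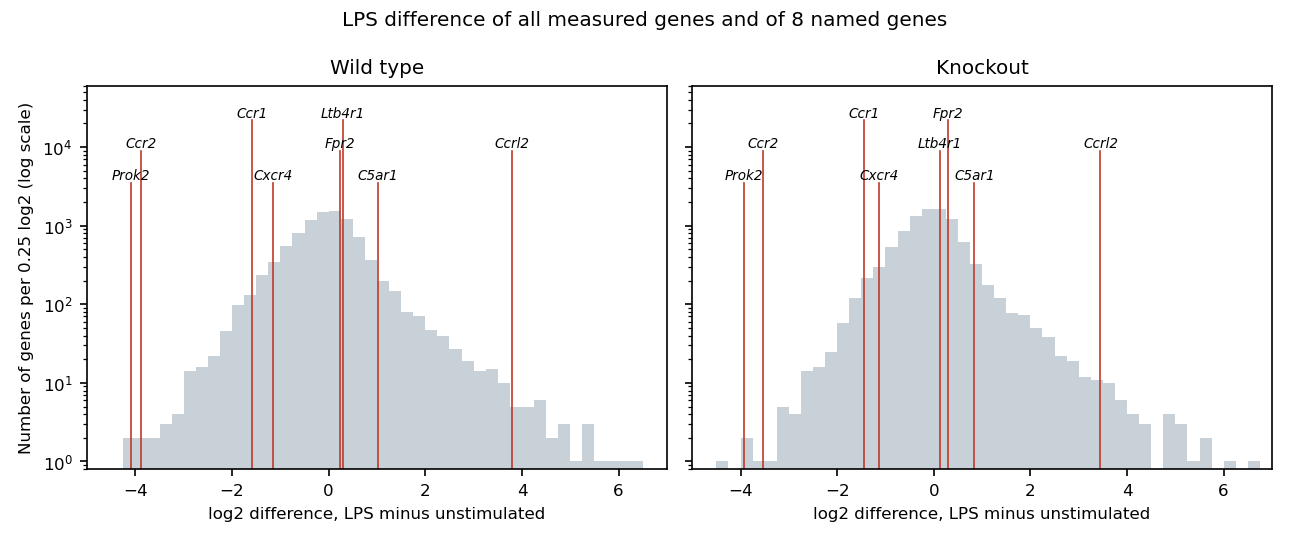
Number of genes (y axis, log scale) by log2 difference between LPS and unstimulated arrays (x axis, bins of 0.25) for 9507 genes in wild-type and 9578 in knockout cells, with red lines at the 8 measured genes. Prok2 and Ccr2 stand in the far left tail, Ccrl2 in the right tail, and Fpr2 and Ltb4r1 in the centre, where the sign of both turned on the poly-A scale and that of Fpr2 also under quantile normalization.

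The comparison of genotypes asks whether loss of miR-125a alters these genes. No gene was called at either time: 0 of 8 among unstimulated cells, where 0.351% of 9401 genes were called higher, 0.66% lower and 1.01% either way, and 0 of 8 after LPS, where 0.615% of 9262 were higher, 0.626% lower and 1.24% either way. Differences of knockout from wild type ran from -0.26 (Ccr2) to 0.15 (Fpr2) in unstimulated cells and from -0.54 (Ccrl2) to 0.20 (Ccr1 and Fpr2) after LPS, where median scaling shifted all genes by -0.15 and turned Ccr2 to -0.07 and Prok2 to -0.09. The 2.5 and 97.5 percentiles of all measured genes were -0.62 and 0.62 in unstimulated cells and -0.65 and 0.70 after LPS. All 8 values lay within these limits. Ccrl2 after LPS, 1.45-fold lower in knockout cells, came closest to them, with rank 378 of 9262 from the lowest, and stood between -0.69 and -0.48 under the alternative scalings.

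Some probe sets departed from this. Ccr1 probe set 1419610_at was 2.48-fold lower in unstimulated knockout than wild-type cells (-1.31), while 1419609_at of the same gene had 0.07. After LPS they stood at -0.21 and 0.20. Prok2 probe set 1451952_at was 2.19-fold higher in unstimulated knockout cells (1.13), while 1419681_a_at had -0.09 and 1426176_a_at 0.39. In both genes the probe set with the highest mean showed no such difference.

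Some eosinophil, basophil and mast cell markers were lower in knockout cells. Of the 10 markers matched, 4 were under the floor on all arrays, among them Ccr3. Of 6 measured in unstimulated cells 4 were lower in the knockout: Prg2 (-1.10), Epx (-1.44), the basophil protease Mcpt8 (-1.61) and Cpa3 (a bound of -1.08). Cpa3 passed the floor on the unstimulated wild-type array alone, so it could not have been called higher. Siglecf (-0.33) and Gata2 (a bound of -0.1) were not called. After LPS 2 of 5 were lower, Prg2 (-1.23) and Mcpt8 (-1.48). Over all measured genes 0.66% were lower in unstimulated knockout cells and 0.626% after LPS. Under quantile normalization 3 of 5 markers were lower in unstimulated cells and 3 of 6 after LPS. The summed signal was 4477 and 3874 on the wild-type and 2122 and 1714 on the knockout arrays, unstimulated and after LPS. Whether these cells have a part in the Ccr1 probe set difference was not tested. Of 7 erythroid markers, Car1, a carbonic anhydrase, was higher by 1.05 in unstimulated knockout cells, and the summed signal was 2457, 4121, 1182 and 1159 on the unstimulated wild-type, unstimulated knockout, LPS wild-type and LPS knockout arrays.

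The difference between the knockout and the wild-type LPS response was under 2-fold for all 8 genes, where 1.23% of 9865 genes were higher, 0.872% lower and 2.1% either way. It ran from -0.35 for Ccrl2 to 0.34 for Ccr2, within the 2.5 and 97.5 percentiles of all genes (-0.76 and 0.81). Single probe sets of Ccr1 (1419610_at, 1.10) and Prok2 (1451952_at, -1.01, with 1 signal at the floor) reached 2-fold in opposite directions.

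**Figure D4:**
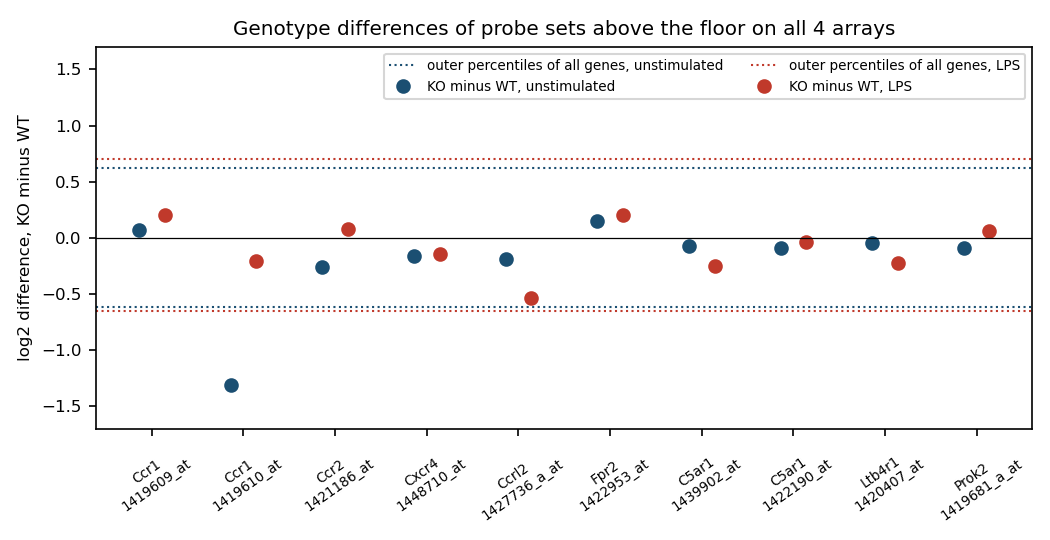
Log2 difference of knockout from wild type (y axis) for the 10 probe sets above the floor on all 4 arrays (x axis), unstimulated (blue) and after LPS (red), with dotted lines at the 2.5 and 97.5 percentiles of all measured genes. All points but 1 lie between the lines; the exception is Ccr1 probe set 1419610_at in unstimulated cells at -1.31.

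The genes whose profile over the 4 arrays was nearest to those of Prok2 and Ccr2 were sought among 9301 others above the floor on at least 2 arrays, by Euclidean distance between log2 values centred on each gene's mean, with signals under the floor raised to it. Among the 4 nearest to Prok2 with all arrays above the floor were Klf4 (distance 0.30) and Ccr2 (0.33), and among the 4 nearest to Ccr2 were Prok2 (0.33) and Ada, adenosine deaminase (0.44). The other two nearest to each were Per2, a component of the circadian clock, and Fosb, an AP-1 subunit. Per2 was under the floor on the LPS wild-type array (6.48) and Fosb on both LPS arrays (5.90 and 5.48), so their distances depend on the floor and have no place in an order. Each profile has 4 points, 1 per array.

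Neighbouring genes were compared by their order in the reference annotation. Ccr2 lies beside Ccr3, Ccr1l1 and Ccr1, of which Ccr3 and Ccr1l1 were under the floor on all arrays. Ccrl2 lies next to Ltf, the lactoferrin gene of secondary granules, whose LPS differences were 0.19 and 0.14, and Lrrfip2, with 0.22 and 0.60. None of these measured neighbours of Ccrl2 was called. Close to Prok2, Eif4e3, a cap-binding protein, had -1.86 and -1.87, and Foxp1, a forkhead factor, -0.19 and 0.42.

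Other chemoattractant receptors were counted from a list of 35, of which 27 were matched and 16 were under the floor on all arrays. Above the floor on all 4 arrays were Cxcr2, S1pr4 (0.41 and -0.05 after LPS) and Ackr4 (0.06 and 0.56). In each genotype 4 genes were called higher and 1 lower, and the 4 passed the floor through the LPS arrays alone, so that no share or median is given. C3ar1, the receptor of complement C3a, was higher by at least 4.34-fold in wild-type and at least 4.97-fold in knockout cells. For Cx3cr1, the fractalkine receptor, the bounds were 3.72-fold and 2.70-fold, for Ccr10 3.68-fold and 3.80-fold, and for Ccr7, a receptor that guides cells to lymph nodes, 3.36-fold and 4.58-fold. All 4 came from below the floor, so none could have been called lower on the deposited scale. Each stayed called on all 3 alternative scales, which does not test the direction. The gene called lower was Ccr9 in wild-type cells (a bound of -1.28, with -0.39 in knockout cells) and Cxcr2, the main neutrophil receptor of CXC chemokines, in knockout cells (-1.11, with -0.62 in wild-type cells). Ccr9 passed the floor through the unstimulated arrays alone and could not have been called higher.

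Ligands of these receptors and enzymes that make them had 7 of 19 higher and 3 lower in wild-type and 7 and 2 in knockout cells (medians 0.14 and 0.27, or -0.07 in wild-type cells under quantile normalization and -0.40 and -0.32 on the poly-A scale). The background of LPS calls for this and all other lists was 7.29% of all measured genes higher and 9.69% lower in wild-type cells. In knockout cells it was 6.62% and 7.99%. Ccl5 passed the floor through the LPS arrays alone. The CC chemokines Ccl5, Ccl4 and Ccl3, of which Ccl3 and Ccl5 bind Ccr1, had differences of 6.46 (a bound), 4.55 and 4.15 in wild-type cells, and 6.56 (a bound), 4.89 and 4.77 in knockout cells. The Ccr2 ligand Ccl2 was lower at -2.85 and, as a bound, -2.34. Also on this list, Hc was lower in both genotypes (-1.72 and -2.28). Ccl6 was lower in wild-type cells (-1.76) and not called in knockout cells (-0.98). On the side of platelet-activating factor, Lpcat2, which makes it, was 4.19-fold and 4.01-fold higher, and Pla2g7, which breaks it down, 7.58-fold and 4.86-fold. Of the leukotriene B4 enzymes, Alox5 had -0.04 and -0.10 and Lta4h 0.12 and -0.13. The Cxcr4 ligand Cxcl12 and the Ccrl2 ligand Rarres2 were under the floor on all arrays, as were the prokineticin receptors Prokr1 and Prokr2.

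G protein subunits and effectors had 4 of 22 higher and 0 lower in each genotype (medians 0.25 and 0.28, or -0.27 and -0.30 on the poly-A scale, where all genes shifted). Among the 4 were the catalytic subunit of phosphoinositide 3-kinase gamma, Pik3cg (3.84-fold and 3.02-fold), and its regulatory subunits Pik3r5 (3.38-fold and 2.70-fold) and Pik3r6 (4.24-fold and 5.31-fold). On the poly-A scale their log2 differences were 1.38, 1.19 and 1.52 in wild-type cells, all called, and 0.99, 0.82 and 1.80 in knockout cells, where Pik3r6 alone was. The inhibitory subunits Gnai2 (0.39 and 0.32) and Gnai3 (-0.34 and -0.14) were not called.

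Receptor kinases, arrestins and RGS proteins, which end receptor signalling, had 1 of 12 higher and 2 lower in wild-type and 2 of 11 higher and 2 lower in knockout cells. Rgs18 (-3.13 and -2.44) and Rgs2 (-2.62 and -2.97) were lower on all scales, joined on the poly-A scale by Grk6 (-1.08 and -1.09) and, in knockout cells, Rgs14 (-1.13), and Grk5 was higher (1.58 and 1.34, with 1.02 and 0.73 on the poly-A scale). The arrestins Arrb1 (0.42 and -0.26) and Arrb2 (-0.21 and -0.28) were not called. Of 8 genes of the G-CSF receptor and STAT3 axis, which is known to drive Prok2 in myeloid cells, 3 were higher and 0 lower in each genotype. These were Csf3, the gene of G-CSF (at least 6.71-fold and at least 7.86-fold), the feedback suppressor Socs3 (2.20 and 2.14) and Jak2 (1.28 and 1.40, with 0.71 and 0.79 on the poly-A scale). Csf3 passed the floor through the LPS arrays alone, so it could not have been called lower. Stat3 itself had -0.76 and -0.66, not called, and was lower on the poly-A scale (-1.33 and -1.27), where the counts of the axis were 2 higher and 1 lower in each genotype. Under median scaling 4 were higher in wild-type cells. In this axis and in the 4 lists before it, 0 genes were called between genotypes at either time.

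**Figure D5:**
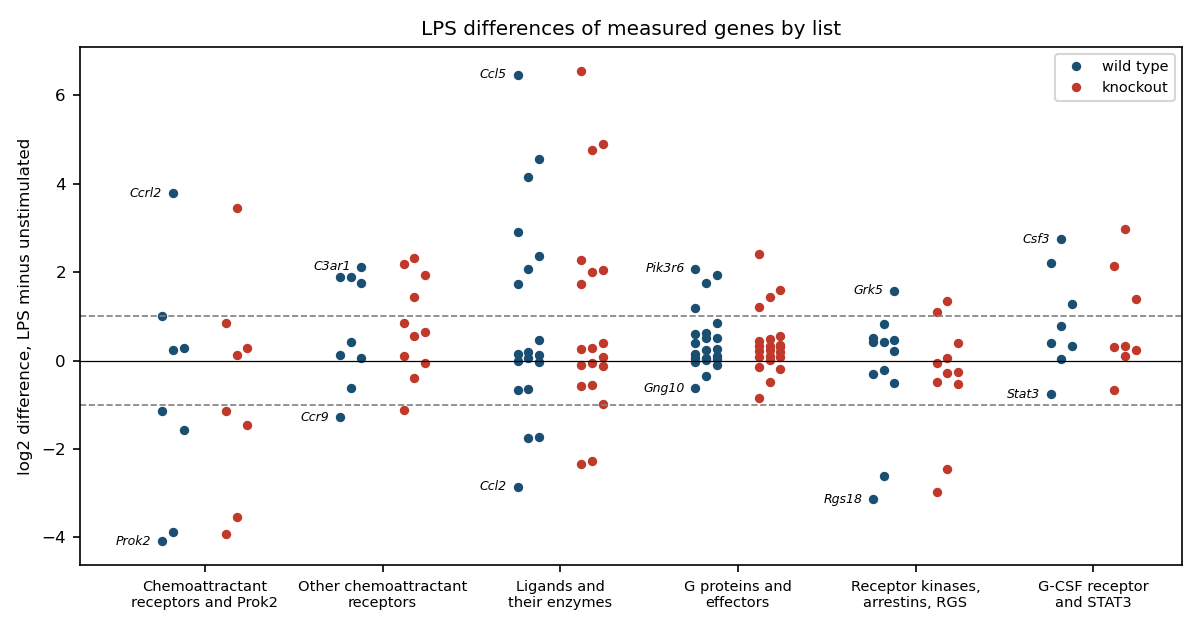
Log2 difference between LPS and unstimulated arrays (y axis) of the measured genes of 6 lists (x axis) in wild-type (blue) and knockout cells (red), 1 point per gene, with the 2-fold calls as dashed lines and the lowest and highest wild-type genes named where measured. Differences with 1 side under the floor are drawn at their bound. In wild-type cells the points run from -4.09 for Prok2 to 6.46 for Ccl5.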

How the data were processed

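The authors deposited log2 values of MAS5 signals, per the submitters' processing notes, and the sources used here name neither version nor settings. MAS5 treats each array alone, and its dim signals are noisy on a log2 scale. Unlogged, every array had a trimmed mean of 500.003 or 500.004 with 2% trimmed from each tail, which hides any change common to most genes. Arrays have no read depth.

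Of 45101 probe sets, 64 were controls and left out of gene results. The annotation gave 1 symbol for 34945, several for 932 (left out), and did not list 9211. No symbol changed through the GRCm38.p6 reference table.

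Within each genotype LPS was compared with no LPS, at each time the genotypes were compared, and the responses were subtracted, 5 comparisons in all. With 1 array per group no p-value, SD or test was possible. The floor, the 2-fold rule and the probe set per gene are given with the results. Of 185 symbols in 15 further lists 164 were matched. Named were the 9 genes, up to 4 genes per list with the largest wild-type LPS differences, list genes called between genotypes, and the 4 nearest profiles to Ccr2 and Prok2; other list genes, such as Ccl2, Lpcat2, the leukotriene enzymes, Gnai2, the arrestins and Stat3, and the neighbours were chosen after their values were seen. The genes and lists were chosen with earlier results of these data known. Alternatives were 3 scalings, the floor at the 50th or 75th percentile or none, the mean over probe sets, and probe sets with shared-probe suffixes left out. The calling steps were tested on simulated data. Python 3.11.15, numpy 2.4.6 and pandas 2.3.3 were used.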

Additional observations from a re-analysis of the deposited data

Results flagged for a closer look

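For 2 genes the genotype difference had opposite signs in unstimulated and LPS-treated cells on the probe set with the highest mean. Ccr2 stood at -0.26 in knockout relative to wild-type cells without LPS and at 0.08 after LPS. Prok2 stood at -0.09 and 0.06. All 4 values are well under 2-fold, the difference between the times was not tested, and the value after LPS turned to -0.07 and -0.06 (Ccr2) and -0.09 and -0.04 (Prok2) under median scaling and quantile normalization.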

How the results depend on the processing

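Counts of called genes and probe sets were compared with their alternatives in 114 cases, of which 102 stayed within 1.5 times the value reported, and for 345 of 352 values of single genes no call was lost, gained or turned. The sign alone changed more often, for 3 of 71 values in the LPS response of each genotype, 6 of 71 and 4 of 68 in the genotype differences without and with LPS, and 7 of 71 in the difference of the responses. The number of the 9 genes called higher in the wild-type LPS response was 1 in place of 2 under quantile normalization, under poly-A scaling, when probe sets were averaged and without suffixed probe sets (_s_at, _x_at and _a_at), and in knockout cells it was 0 in that last setting. Without suffixed probe sets the Prok2 genotype difference in unstimulated cells reversed to 1.13 and its difference between responses to -1.01, which made 1 gene called higher and 1 called lower in these comparisons. With no floor 1 gene was called higher in each genotype comparison. This was Ptafr (1.15 without and 1.9 with LPS), whose signals were under the floor on all 4 arrays. With the floor at the 75th percentile 1 Ccr2 probe set was called lower in each genotype and 1 Prok2 probe set in wild-type cells. The setting that keeps the _a_at type was chosen after seeing the data and changed no value of the 9 genes. Counts over all genes depended most on the floor: with none, 2720 were higher and 3292 lower in wild-type and 2771 and 3042 in knockout cells. Genotype calls over all genes ran from 11 higher and 17 lower (floor at the 75th percentile) to 2149 and 1804 (no floor) in unstimulated cells, and from 16 and 24 to 2462 and 1898 after LPS; calls between responses ran from 25 and 21 to 2978 and 2784. No paired analysis was possible because each group has 1 array. Signal over background limits the Ccr2, Prok2 and Ptafr probe sets that were under the floor, for which only bounds or no value can be given.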
